A study of Homo sapiens with 3 samples.

Results

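MHCC97L/DoxR, a doxorubicin-resistant subline, was compared with MHCC97Low, the human metastatic hepatocellular carcinoma cell line from which it was derived. The comparison took 2 of the series' 3 arrays, 1 for each line, and covered 12605 genes. The array of the cisplatin-resistant subline MHCC97L/CisR is given only side by side. All 3 are lines from a liver tumour grown in DMEM with fetal bovine serum, and per the labels none was under drug treatment. No selection dose or time, and no statement on whether a subline is 1 clone, is given in the sources used here.

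With 1 array for each line, no spread between cultures could be measured, no test was possible, and the precision of each value is limited by that number of arrays. Signal is the intensity of a probe set, and a 2-fold difference in it was the line for calling a gene higher or lower. Values at or under 76.9, the pooled median of the series, were set to that floor, and a fold with its dimmer value there is written as "at least". The weakest probe set of a gene is the compared one with the smallest difference. Both sublines were compared with the same parental array, so an error in the parental value of a gene enters both differences. In RNA from a whole culture, a difference in the number of cells that express a gene and a difference in RNA per cell cannot be told apart.

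Doxorubicin is an anthracycline that intercalates into DNA and traps topoisomerase II on cleaved DNA, and it also cycles between quinone and semiquinone forms. Cells are known to resist it by pumping it out, chiefly with P-glycoprotein, the product of ABCB1, by changing its target, by reducing it to its alcohol, or by tolerating the stress it causes. ABCB1 lies on the long arm of chromosome 7, where it can be amplified together with its neighbours in drug-selected cells.

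The arrays were alike in distribution. The median signal was 78.5 in the parental and 73.3 in the doxorubicin-resistant array, and both had a trimmed mean of 499.9. Spikes of bacterial poly-A RNA added before labelling were dimmer on the doxorubicin-resistant array in all 24 probe sets (median log2 difference -0.33, range -0.48 to -0.07), while hybridisation spikes had a median of -0.03. The median log2 difference of all compared genes was 0.00 and that of 11 housekeeping genes was 0.02, or -0.15 without probe sets marked as possibly cross-hybridising. Of 6 biliary markers, 4 were compared and all lay within 2-fold, with KRT19, the ductal keratin, at 8851 in the parental and 12056 in the doxorubicin-resistant array. Of 12 hepatocyte markers, 8 were compared, with 1 higher, 4 lower and a median log2 difference of -1.64. That median rests on few genes and depended on the settings, at -0.50 with a floor at the 25th percentile of all values, -0.81 with one at the 75th, -0.90 without possibly cross-hybridising probe sets, -1.06 over the median of probe sets and -1.90 with a pseudocount of 50 in place of the floor. For other cell types, 3 of 8 fibroblast, 2 of 6 endothelial and 1 of 6 leukocyte markers were above the floor on at least 1 of these arrays. Among these, the endothelial adhesion molecule PECAM1 had signals of 1052 and 827 and the T cell gene CD3E 49.7 and 78.7. AFP, the fetal liver protein, had signals of 508, 112 and 289 in this order: parental, cisplatin-resistant, doxorubicin-resistant. Every set of 3 unlabelled signals that follows keeps that order.

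Of the 12605 genes, 376 (2.98%) were higher and 345 (2.74%) lower in the doxorubicin-resistant line by 2-fold or more, together 5.72%. These shares are the background for each count of called list members below. Both values were above the floor in 315 higher and 238 lower genes. A 4-fold difference was reached by 45 higher and 51 lower genes, and an 8-fold difference by 6 and 14. When the genes were divided into 3 equal groups by signal, 9.54% were called in the dimmest and 2.36% in the brightest group. A further probe set was compared for 171 of the higher genes, and all probe sets had 1 sign in 154 of them. The same held for 108 of 124 lower genes, and for 56.8% of the 6268 genes with several compared probe sets. Every compared probe set passed 2-fold in 53 higher and 34 lower genes. The call line is a convention, since 23 called genes had a log2 difference under 1.01 in size and 19 uncalled genes one over 0.99.

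**Figure D1:**
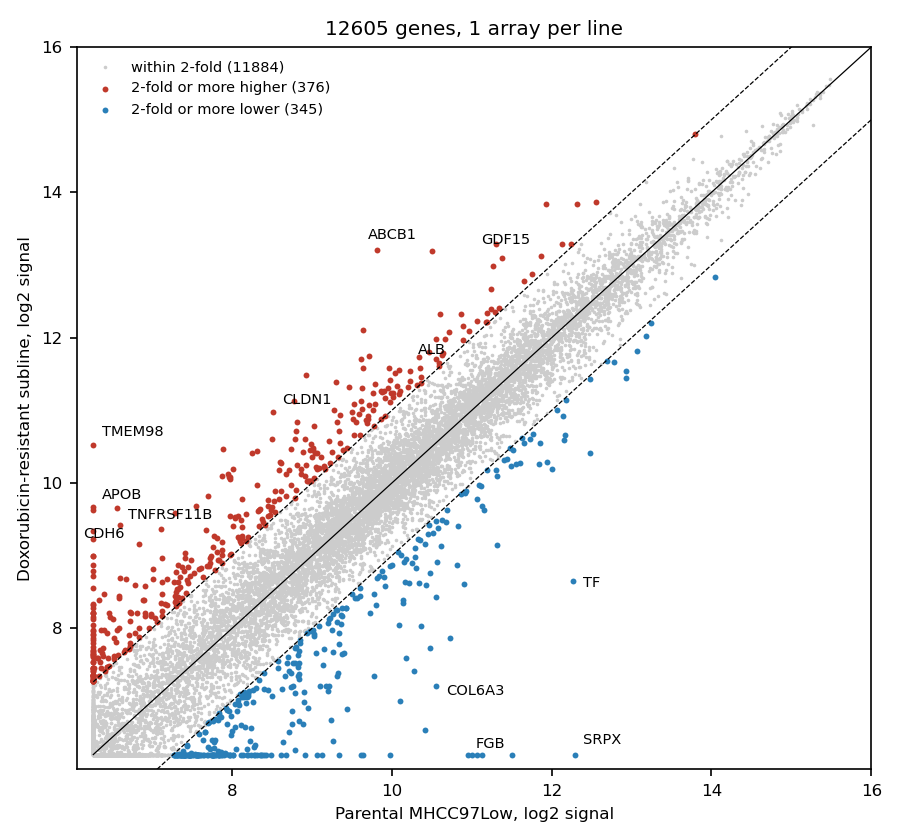
Log2 signal of 12605 genes in the doxorubicin-resistant (vertical axis) against the parental array (horizontal axis), with values under the floor set to it. Dashed lines mark 2-fold, red points the 376 higher genes and blue points the 345 lower genes, and most of the genes with the largest differences lie at the floor on 1 array.

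The plot of both arrays' signals shows that the extremes are mainly genes near or under the floor on 1 side. SRPX, a sushi-repeat protein gene of the X chromosome, stood lowest and TMEM98, which encodes a membrane protein, highest. TMEM98 had signals of 25.4 in parental MHCC97Low, 418 in MHCC97L/CisR and 1478 in MHCC97L/DoxR and was at least 19.2-fold higher. SRPX is described with its neighbours on the X chromosome. Among the higher genes, ABCB1 had the largest difference of those measured on both arrays in several probe sets of 1 sign.

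ABCB1, the efflux pump for anthracyclines, had a signal of 897 in parental MHCC97Low, 1801 in MHCC97L/CisR and 9499 in MHCC97L/DoxR, 10.6-fold higher than parental. Its second probe set, at 113, 116 and 605, was 5.34-fold higher. The doxorubicin-resistant value was the highest of the 3 in both probe sets. The cisplatin-resistant value exceeded parental 2.01-fold in the first of them.

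Across the ABC efflux transporters, 3 of 14 compared members were higher and none lower, against 2.98% and 2.74% of all genes, and their median log2 difference was 0.11, or 0.40 without possibly cross-hybridising probe sets. ABCB4, the phospholipid flippase of bile that neighbours ABCB1, had signals of 270.4, 319 and 748 and was 2.76-fold higher. ABCA3, a lipid transporter of lamellar bodies, had 125, 266 and 256 and was 2.05-fold higher, but its difference was 0.81 on the log2 scale with a pseudocount of 50 in place of the floor. The remaining 11 lay within 2-fold. The breast cancer resistance protein ABCG2 had 6438, 8872 and 7035, and the multidrug resistance proteins ABCC1, ABCC2 and ABCC3 had 5181, 4327 and 4238, 3364, 2892 and 3353, and 3233, 6096 and 4637. ABCC5, another organic anion pump, had a log2 difference of -0.31 in its brightest probe set and 0.40 in both others, so that its direction was not settled. The vault protein gene MVP had one of -0.06.

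The higher signal of ABCB1 was shared in smaller degree by its chromosomal neighbours. Of the 16 compared genes nearest to it, 8 on each side, 10 were higher, with a median log2 difference of 1.52 (0.30 to 2.46), while the same genes had a median of 0.06 in the cisplatin-resistant array. The largest was RUNDC3B, whose product binds small GTPases, at 52.5, 172 and 424 (at least 5.51-fold higher). ELAPOR2, named as an endosome and lysosome-associated gene, had 156, 240.2 and 767 (4.92-fold higher), and the mitochondrial carrier SLC25A40 had 841, 1066 and 3449.7 (4.10-fold higher). In each of these genes the doxorubicin-resistant array stood above both others.

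DBF4, the activator of the CDC7 replication kinase, had signals of 2456, 2020.2 and 8080.2 and was 3.29-fold higher. TMEM243 had 3899, 3002 and 14645 and was 3.76-fold higher, CROT, the peroxisomal carnitine octanoyltransferase, was 3.53-fold higher (at least 1.06-fold in the weakest probe set), and the cyclin D-binding factor DMTF1 was 2.98-fold higher. Beyond DBF4 the differences became smaller. SRI, the calcium-binding protein sorcin, had 6774, 10743 and 11006, a difference of 1.62-fold. The metalloreductases STEAP1 and STEAP2 differed by 1.34-fold and 1.69-fold and the tight junction gene CLDN12 by 1.90-fold. On the other side, the guidance ligand SEMA3A had 208, 674 and 256 and differed by 1.23-fold.

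DBF4 and SLC25A40 start on opposite strands and share the sequence between them. It is shown because these neighbours stood 3.29-fold and 4.10-fold higher on the same array and lie on either side of it. The part of this sequence in their differences was not tested. The 132 bases between their listed starts, at chr7:87876361-87876492 of GRCh38.p14 from RefSeq, are given on the plus strand. Capitals mark the 2 matches to the GC box letters GGGCGG, searched on both strands. The same letters occur in 42.6% of all listed promoters, counted in the 250 bases before the start, a longer window than these 132 bases.
DBF4 and SLC25A40: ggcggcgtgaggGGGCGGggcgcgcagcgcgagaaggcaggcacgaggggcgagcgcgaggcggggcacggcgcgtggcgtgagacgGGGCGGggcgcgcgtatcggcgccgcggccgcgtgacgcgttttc

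The neighbourhood extended well past these genes. A running median over 25 compared genes of a chromosome stayed at 0.4 or more (log2) from ZNF92 to GNGT1 on chromosome 7, a stretch of 109 compared genes whose bounds were thus drawn from the values themselves. Within it, 43 genes (39.4%) were higher and 2 lower, and the median log2 difference was 0.89. The stretch held 11.4% of all higher genes. On the rest of chromosome 7, 34 of 521 genes (6.53%) were higher, with a median of 0.19. The same 109 genes had a median of 0.05 in the cisplatin-resistant array. ABCB1 ranked first within the stretch and stood 2.51 above its median on the log2 scale.

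**Figure D2:**
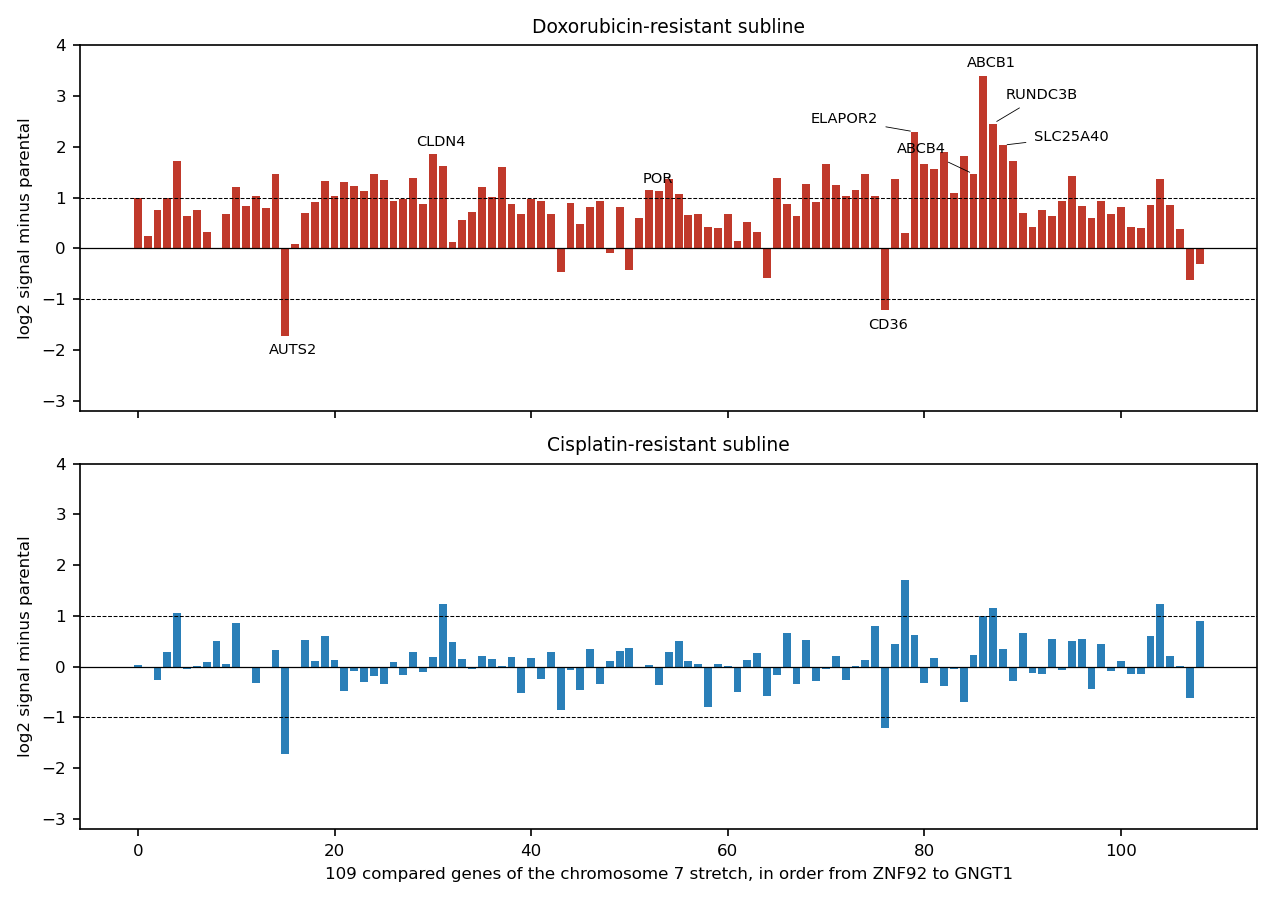
Log2 signal minus parental for the 109 compared genes of the chromosome 7 stretch in their order along the chromosome, in the doxorubicin-resistant (top) and the cisplatin-resistant subline (bottom). Dashed lines mark 2-fold, values under the floor were set to it, and the bars of the top panel lie mostly above 0 with ABCB1 the tallest.

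The plot along the stretch shows a broad plateau with a peak around ABCB1 in the doxorubicin-resistant subline. Near its start lay ASL, argininosuccinate lyase of the urea cycle, at 1552, 3245 and 5141 (3.31-fold higher). A block of genes known from the Williams syndrome region followed. In it the chromatin remodeller BAZ1B had 1631, 1163 and 4042 (2.48-fold higher), the syntaxin STX1A 939.5, 1145 and 2452 (2.61-fold higher), and the microtubule linker CLIP2 997, 1001 and 3055 (3.06-fold higher). MLXIPL, the carbohydrate-response factor ChREBP, had 107, 93.9 and 296 and was 2.77-fold higher.

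Further along, the G protein subunit GNAI1 was 2.04-fold higher, the gamma-secretase activating protein gene GSAP 2.40-fold higher, and the putative homeodomain factor gene PHTF2 2.22-fold higher. CDK14, a cyclin-dependent kinase of Wnt signalling, was 2.69-fold higher (at least 1.34-fold in the weakest probe set). GUSB, a lysosomal enzyme often used as a reference gene, had 2724, 3324 and 5408 and stood at 1.99-fold, just inside the call line. Its log2 difference of 0.99 was the largest of the 11 housekeeping genes. The next positive value was 0.31 for SDHA, and the lowest of the 11 was -0.45. The 2 lower genes of the stretch were AUTS2, a neurodevelopmental gene, at 253, 49.3 and 25.8, and the fatty acid carrier CD36 at 178, 48.3 and 50.6, and the cisplatin-resistant array was as low for both. CD36 stood at -0.79 on the log2 scale with the pseudocount and at -0.99 over the median of its probe sets. DNA copy number was not measured, and the part that copy number has in these differences was not tested.

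The drug's targets showed no difference of 2-fold. None of 10 compared topoisomerase and related genes was called in either direction, with a median log2 difference of -0.06 and a range from -0.44 to 0.25. TOP2A, the proliferation-linked topoisomerase II, had signals of 4955 in parental MHCC97Low, 5537 in MHCC97L/CisR and 3662 in MHCC97L/DoxR. Its -0.44 was the largest difference of the group by the brightest probe sets. A second TOP2A probe set of like brightness had 4971, 5079 and 3011 (1.65-fold lower, or -0.72 on the log2 scale), and a dimmer one of TOP1 stood at -0.62. TOP2B, the isoform of resting cells, had 2738, 2846 and 2379.7, and TOP1, the target of camptothecins, 4449.9, 3949 and 4772. TDP2, which frees DNA ends from trapped topoisomerase II, had 7022, 5904 and 6908, and the chromatin proteins HMGB1 and HMGB2 had log2 differences of -0.07 and 0.25.

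Of 14 compared enzymes of anthracycline reduction and one-electron cycling, 2 were higher and none lower, with a median of 0.06, or 0.33 without possibly cross-hybridising probe sets. POR, the cytochrome P450 reductase that reduces doxorubicin to its semiquinone, had 1998, 1560.4 and 4370.0 and was 2.19-fold higher, and it lies within the chromosome 7 stretch. AKR7A3, an aldo-keto reductase, had 576, 1062 and 1176 and was 2.04-fold higher, or 0.97 on the log2 scale with the pseudocount. The carbonyl reductases CBR1 and CBR3, which form doxorubicinol, had 5585, 5461 and 5212 and 1031, 1753 and 808. CBR4, their mitochondrial relative, stood at 1.83-fold. In their brightest probe sets, the abundant AKR1B10, AKR1C1, AKR1C2, AKR1C3 and NQO1 differed by at most 1.12-fold, with NQO1, a 2-electron quinone reductase, at 28532, 27861 and 29005. A pair of dim AKR1C1 probe sets stood apart from the bright ones, at 658, 302 and 251 (2.62-fold lower) and 306, 125 and 111 (2.77-fold lower).

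Genes that ATF4 and CHOP are known to induce stood higher as a group. ATF4 is the transcription factor translated when eIF2-alpha is phosphorylated under amino acid, ER or redox stress, and CHOP, the product of DDIT3, acts downstream of it. The list used here counts ATF4 itself as a member. Of its 25 compared genes, 9 were higher and none lower, against 2.98% and 2.74% of all genes. Above parental stood 24 of them, with a median log2 difference of 0.48 beside 0.00 for all genes. Among 13 members with several compared probe sets, all of them pointed up in 12. In the cisplatin-resistant array 19 of the same 25 genes stood below parental, with a median of -0.37 and none 2-fold higher.

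GDF15, a stress cytokine, had signals of 2667 in parental MHCC97Low, 1501 in MHCC97L/CisR and 8742 in MHCC97L/DoxR, and it was 3.28-fold higher (1.26-fold in the weakest probe set). The factor ATF3 had 475, 533 and 1379 and was 2.91-fold higher, but 1.38-fold in the weakest probe set. Without the probe sets marked as possibly cross-hybridising, ATF3 stood at 0.46 on the log2 scale. DDIT4, the inhibitor of mTORC1, had 5118, 7826 and 14678 (2.87-fold higher), and DDIT3 itself 1867, 1519.5 and 5136 (2.75-fold higher). In all 4 genes the doxorubicin-resistant array was the highest of the 3.

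Enzymes of amino acid supply were among them. CTH, which makes cysteine from cystathionine, had 723, 545 and 2024 (2.80-fold higher, and 2.46-fold in the weakest probe set). ASNS, asparagine synthetase, had 6001, 6521 and 14949.7 (2.49-fold higher). The secreted glycoprotein STC2 had 371, 271 and 954 (2.57-fold higher), CHAC1, which degrades glutathione, 324, 202 and 795 (2.46-fold higher), and the lipoprotein receptor VLDLR 349, 239 and 745 (2.13-fold higher, or 0.99 on the log2 scale with the pseudocount). TRIB3, the pseudokinase that restrains ATF4 and AKT, stood just inside the line at 1.96-fold. SESN2 and PPP1R15A, the sestrin and the eIF2-alpha phosphatase subunit GADD34, stood at 1.93-fold and 1.85-fold. The other SESN2 probe set had 343, 248 and 1116 and was 3.25-fold higher, and the other one of PPP1R15A stood at 1.72-fold.

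The other listed genes differed less. The serine synthesis enzymes PHGDH, PSAT1 and PSPH had log2 differences of 0.36, 0.31 and -0.08, the last being the only member below parental. The amino acid transporters SLC7A5, SLC7A11 and SLC3A2 had 0.32, 0.16 and 0.15. ATF4 mRNA itself had signals of 13667, 11711 and 16556, a log2 difference of 0.28. The stress factor NUPR1 had 4568, 1720.5 and 5054, so that the lowest array was the cisplatin-resistant one. Related genes outside this list included PCK2, the mitochondrial PEP carboxykinase, at 669.6, 878 and 1409.7 (2.11-fold higher), and INHBE, an activin subunit, at 106, 67.2 and 299 (2.83-fold higher).

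The C/EBP-ATF response element, to which ATF4 binds with C/EBP partners, was searched as TGATGNAA on both strands in the 250 bases before each start listed in RefSeq's promoter table (GRCh38.p14). Of the 27 listed genes, ATF4 among them, 23 had at least 1 promoter in the table. The letters occurred in any listed promoter of 5 of these, compared with 3.89% of 27305 genes. With the first listed start alone the numbers were 4 and 3.19%. Among the 9 higher targets, all matched, 3 held them. They are shown with 30 bases on each side, 5′ to 3′ on the strand of the gene and with the match in capitals, because they are the higher targets with the element's letters. CHAC1 holds the letters as their reverse complement. The match began 191, 68 and 209 bases before the listed starts of ATF3, ASNS and CHAC1.
ATF3, chr1:212565186-212565253, plus strand: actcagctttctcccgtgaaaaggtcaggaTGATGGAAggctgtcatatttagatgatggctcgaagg
ASNS, chr7:97872439-97872506, minus strand: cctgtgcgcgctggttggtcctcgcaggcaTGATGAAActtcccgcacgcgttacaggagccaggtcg
CHAC1, chr15:40953232-40953299, plus strand: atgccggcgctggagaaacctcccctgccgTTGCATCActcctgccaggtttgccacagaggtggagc

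A match of letters is a description, and binding was not measured. ASNS and ATF3 have several listed starts, and the arrays do not show which start was used.

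The ER chaperones and XBP1 or ATF6 targets, which belong to the other arms of the unfolded protein response, were nearly all within 2-fold. None of 20 compared members was higher and 1 was lower, with a median log2 difference of -0.04 and 7 above parental. EIF2AK3, an eIF2-alpha kinase gene and so of the ATF4 arm, is counted among the 20, at -0.00. HSPA5, the chaperone BiP, had 13378, 8447 and 12984, the glycoprotein chaperone HSP90B1 1889, 1149 and 1596, and XBP1 2372, 2348 and 2675. By the brightest probe sets, ERN1, the sensor IRE1, had the largest positive value, at 814, 414 and 1283 and 0.66 on the log2 scale. A dimmer ERN1 probe set had 305, 257 and 649 and was 2.12-fold higher, and another stood at 0.18. EDEM1, which directs misfolded glycoproteins to degradation, had 2878, 3246 and 1202 and was 2.39-fold lower. In the cisplatin-resistant array 19 of the 20 stood below parental, with a median of -0.37.

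**Figure D3:**
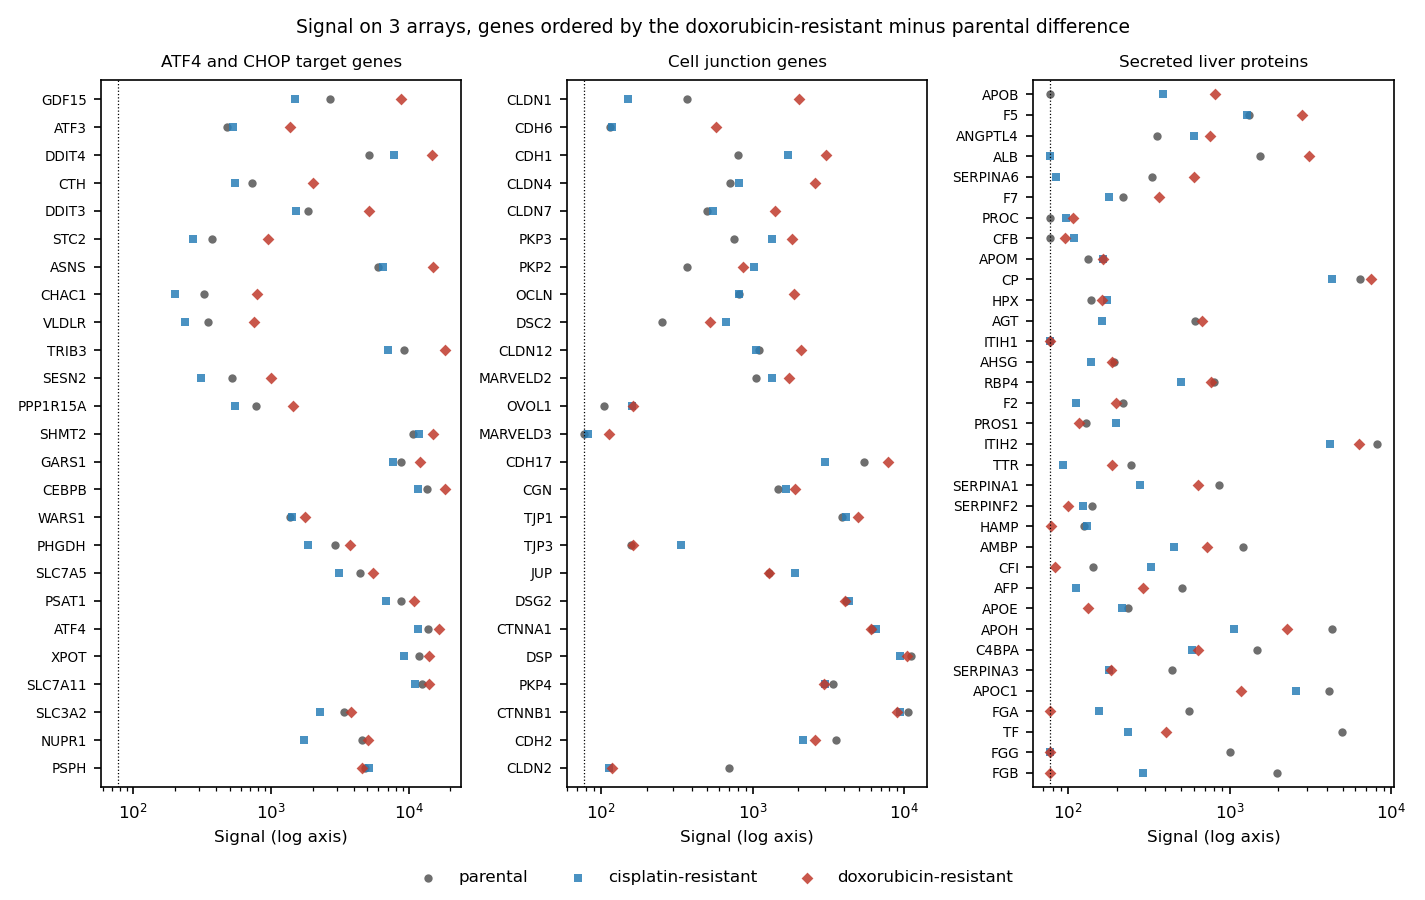
Signal on a log axis of every compared member of the ATF4 and CHOP target, cell junction and secreted liver protein lists. Parental values are circles, cisplatin-resistant squares and doxorubicin-resistant diamonds, and genes are ordered from the highest to the lowest difference between doxorubicin-resistant and parental. The dotted line is the floor of 76.9, where lower values are drawn, and 24 of 25 genes of the ATF4 list have the diamond to the right of the circle.

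Among epithelial junction genes more members were higher than lower, as the plot of signals by gene shows. Of 25 compared genes on the list of tight junctions, adherens junctions and desmosomes, 9 were higher and 1 was lower, against 2.98% and 2.74% of all genes. The other 15 lay within 2-fold. Among them was OVOL1, a transcription factor gene counted on this list, at 0.63 on the log2 scale. The median log2 difference was 0.56, with 17 above and 8 below parental. The middle gene was MARVELD3, at 45.4, 82.4 and 113, so this median is a bound set by the floor. With the floor raised to the 75th percentile of all values this median was 0.38. CLDN1, the claudin of tight junctions that also serves hepatitis C virus entry, had 367 in parental MHCC97Low, 150.1 in MHCC97L/CisR and 2018 in MHCC97L/DoxR and was 5.50-fold higher. CDH1, E-cadherin, had 798, 1708 and 3062 (3.84-fold higher), and the claudins CLDN4 and CLDN7 had 709, 814 and 2563 (3.61-fold higher) and 502, 552 and 1401 (2.79-fold higher). CLDN4 lies in the chromosome 7 stretch, and the others named here do not.

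CDH6, a kidney and fetal cadherin, had 115, 118 and 574 (5.01-fold higher, at least 1.47-fold in the weakest probe set). The desmosomal plakophilins PKP3 and PKP2 had 753, 1338 and 1827 (2.43-fold higher) and 369, 1018 and 860.3 (2.33-fold higher), and occludin, OCLN, 819, 815 and 1864 (2.28-fold higher). For PKP2 the cisplatin-resistant array was the highest. DSC2, desmocollin, was 2.05-fold higher by its brightest probe set, but over the median of its probe sets its log2 difference was 0.38.

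Of the other members described, all but CLDN2 lay within 2-fold. The catenins CTNNB1 and CTNNA1 had log2 differences of -0.25 and -0.03, plakoglobin JUP -0.00, desmoplakin DSP -0.08, and the scaffolds TJP1 and TJP3 0.36 and 0.04. CLDN2, a pore-forming claudin of the X chromosome, had 697, 114 and 119 and was 5.86-fold lower, with the cisplatin-resistant array as low. CDH2, N-cadherin, had 3577, 2159.5 and 2591, a log2 difference of -0.47, and it is counted on the mesenchymal list as well.

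A few brush border genes were higher, though their list as a whole lay near the median of all genes. Of 15 compared keratins and microvillar genes, 3 were higher and 1 lower, with a median of 0.03, which was 0.22 with the floor at the 75th percentile and -0.15 without possibly cross-hybridising probe sets. VIL1, the actin bundler villin, had 305, 1010.1 and 1361 (4.47-fold higher, 1.51-fold in the weakest probe set). The protocadherins that link microvillus tips, CDHR2 and CDHR5, had 391, 549 and 1239 (3.17-fold higher) and 41.9, 259 and 239.9 (at least 3.12-fold higher). CDHR5 stood at 0.87 on the log2 scale over the median of its probe sets. KRT15, a basal keratin, had 159, 125 and 69.0 (at least 2.07-fold lower, or -0.81 on the log2 scale with the pseudocount). ANPEP, the brush border aminopeptidase CD13, had 363, 455 and 1552 and was 4.28-fold higher.

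Mesenchymal genes and EMT factors had a median log2 difference of -0.34, with none of 19 compared members higher, 2 lower and 2 above parental. TGFB2, a TGF-beta ligand, had 2780.3, 1739 and 1284 (2.16-fold lower, the smallest difference over its probe sets), and SPARC, a matricellular protein, 172, 59.7 and 12.2 (at least 2.24-fold lower). The repressors of E-cadherin ZEB1 and SNAI2 had 1332, 1428 and 1153 and 393, 431 and 272, log2 differences of -0.21 and -0.53. SNAI1 was under the floor on the doxorubicin-resistant array at 82.6 in the parental. Vimentin, VIM, had 493, 1362 and 428, so that the sublines lay on opposite sides of parental. Fibronectin FN1 had a log2 difference of -0.04.

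Matrix genes differed one by one. Of 19 compared collagens and laminins, 1 was higher and 2 lower, with a median of -0.31. COL6A3, a chain of microfibrillar collagen, had 1499, 597 and 147 and was 10.2-fold lower, and the X-linked basement membrane chain COL4A5 had 178, 324 and 38.0 (at least 2.32-fold lower). The laminin chain LAMB1, encoded on chromosome 7, had 2591, 3329 and 5441 (2.10-fold higher). Of 13 proteoglycan genes, 2 were higher and 1 lower. Versican, VCAN, had 236, 142 and 1098 (4.66-fold higher, at least 1.58-fold in the weakest probe set), lumican, LUM, 258, 2632 and 1167 (4.53-fold higher), and serglycin, SRGN, 3112, 2891 and 1238 (2.51-fold lower). LUM, a fibroblast marker in tissue, was brightest in the cisplatin-resistant array. DCN, another of these markers, was not above the floor on either compared array.

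Among 28 compared proteases and inhibitors none was higher and 3 were lower. The gelatinase MMP2 had 647, 375 and 63.0 (at least 8.41-fold lower), matrilysin MMP7 16859, 12932 and 7337 (2.30-fold lower), and the plasminogen activator PLAT 159, 207 and 44.5 (at least 2.06-fold lower). Of 12 integrins, ITGB4 and ITGB7 were higher at 1091, 2021 and 2406 (2.21-fold higher) and 15.5, 78.1 and 224 (at least 2.91-fold higher), and ITGA7, a laminin receptor of muscle, was at least 2.46-fold lower. ITGB4 is the hemidesmosome chain and ITGB7 is best known from lymphocytes.

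Secreted liver proteins split in both directions. Of 34 compared members, 4 were higher and 7 lower, 12 stood above parental, and the median log2 difference was -0.26. A floor at the 25th percentile of all values moved it to -0.46. In the cisplatin-resistant array the median was -0.68, with 14 of the 34 at least 2-fold lower. The 3 fibrinogen chains, which are assembled into 1 clotting protein, were all lower. FGB had 1977 in parental MHCC97Low, 291 in MHCC97L/CisR and 49.6 in MHCC97L/DoxR (at least 25.7-fold lower), FGG 1004, 57.8 and 25.6 (at least 13.1-fold lower) and FGA 560.1, 155 and 7.70 (at least 7.28-fold lower). For FGA the weakest probe set gave at least 1.35-fold, and the difference was -0.43 on the log2 scale without probe sets marked as possibly cross-hybridising.

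Transferrin, TF, the iron carrier, had 4925, 234 and 404 and was 12.2-fold lower (at least 2.57-fold in the weakest probe set). The apolipoprotein APOC1 had 4098, 2573 and 1174 (3.49-fold lower), the antichymotrypsin gene SERPINA3 437, 179 and 184 (2.37-fold lower), and the complement regulator C4BPA 1469, 587 and 638 (2.30-fold lower). In TF, SERPINA3 and C4BPA both sublines lay far below parental, whereas in APOC1 the doxorubicin-resistant array was the lowest.

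APOB, the structural protein of VLDL, stood at the other end with 42.3, 386 and 816 and was at least 10.6-fold higher. Its other probe set was under the floor on every array, at 45.4, 2.23 and 46.7. MTTP, which loads lipid onto APOB, had 956, 672 and 2468 and was 2.58-fold higher. Factor V, F5, had 1322, 1282 and 2820.2 (2.13-fold higher), and the lipase inhibitor ANGPTL4 356, 600.3 and 755 (2.12-fold higher, or 0.93 on the log2 scale over the median of its probe sets). Albumin, ALB, had 1545, 3.17 and 3115 and was 2.02-fold higher, but 1.14-fold in the weakest probe set and 0.95 on the log2 scale over their median. The cisplatin-resistant value of ALB lay under the floor. The cortisol carrier SERPINA6 had 331, 84.0 and 597, a log2 difference of 0.85. Alpha-1-antitrypsin, SERPINA1, had 853, 276 and 636 and transthyretin, TTR, 246, 93.0 and 188, both within 2-fold here. APOH, a phospholipid-binding plasma protein, had 4297, 1063 and 2269.

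Liver-enriched transcription factors had a median log2 difference of 0.38. Of 18 compared members, 3 were higher and none lower, against 2.98% and 2.74% of all genes. PROX1, a regulator of liver and lymphatic development, had 88.3, 212 and 298 (3.37-fold higher, at least 1.54-fold in the weakest probe set). ONECUT2, a relative of HNF6, had 321, 116 and 783 (2.44-fold higher), and NR5A2, the receptor LRH-1 of bile acid synthesis, 159, 226 and 373 (2.35-fold higher). NR5A2 stood at 0.81 on the log2 scale over the median of its probe sets. NR0B2, the small heterodimer partner SHP that NR5A2 is known to induce, had 32.5, 56.5 and 157 and was at least 2.04-fold higher.

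Phase I and II drug metabolism had 4 of 21 compared members higher and none lower, against 2.98% and 2.74% of all genes. The median was 0.03. The fatty acid hydroxylases CYP4F3 and CYP4F2 had 1095, 1316 and 2463 (2.25-fold higher) and 83.2, 231 and 202 (2.43-fold higher, or 0.92 on the log2 scale with the pseudocount). Probe sets of these similar genes may share signal. UGT1A6, a glucuronosyltransferase, had 1176, 2076 and 2561 (2.18-fold higher), and the UGT1A genes share exons. EPHX2, the soluble epoxide hydrolase, was under the floor on the parental array and at 159 on the doxorubicin-resistant one (at least 2.07-fold higher). ADH6, an alcohol dehydrogenase, had 146, 294 and 410.2 (2.81-fold higher), and the steroid and statin uptake carrier SLCO2B1 had 649.7, 216 and 221 (2.94-fold lower).

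On the X chromosome a run of consecutive compared genes had no signal above the floor in the doxorubicin-resistant array. The run held 7 genes, XK, DYNLT3, SYTL5, SRPX, RPGR, TSPAN7 and MID1IP1, and all 7 were above the floor in both other arrays. Inside the same span, CYBB, H2AP and OTC were under the floor on both compared arrays. Bounds against the floor passed 2-fold in 5 of the 7, and all 7 passed with a floor at the 25th percentile or with the pseudocount.

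SRPX, whose sushi-repeat product is secreted, had 5012 in parental MHCC97Low, 4031 in MHCC97L/CisR and 26.1 in MHCC97L/DoxR, at least 65.2-fold lower. The dynein light chain gene DYNLT3 had 2900.4, 4244 and 33.7 (at least 37.7-fold lower), the tetraspanin TSPAN7 2235, 2201 and 43.0 (at least 29.1-fold lower), and MID1IP1, which promotes fatty acid synthesis, 2144, 1908 and 17.3 (at least 27.9-fold lower). SYTL5, a RAB27 effector of vesicle traffic, had 2045, 2114 and 22.3 (at least 26.6-fold lower). XK, of the Kell blood group complex, and RPGR, the retinitis pigmentosa GTPase regulator, were dim in the parental array at 151 and 83.2, with XK at least 1.96-fold lower and RPGR at least 1.08-fold lower. In each gene the doxorubicin-resistant value lay under the floor and both other values above it, though for RPGR the parental value was only just above it.

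The genes on either side were measured. PRRG1, a Gla-domain protein gene before the run, had 462, 466 and 517, and BCOR, the BCL6 corepressor after it, 871, 663 and 758. In 1 of 4 probe sets BCOR was at least 2.52-fold lower, at 194, 42.9 and 61.5. ATP6AP2, the prorenin receptor, had 10044, 4660.1 and 7189 and CXorf38 1785, 2434 and 1425. TMEM47, a junctional membrane protein gene on the side of PRRG1, had 49.7, 642 and 510.5 and was at least 6.64-fold higher (at least 1.19-fold in the weakest probe set). TAB3, an adaptor of NF-kB signalling, had a log2 difference of 0.50. Genomic DNA was not measured, and a part of DNA loss in the run was not tested.

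**Figure D4:**
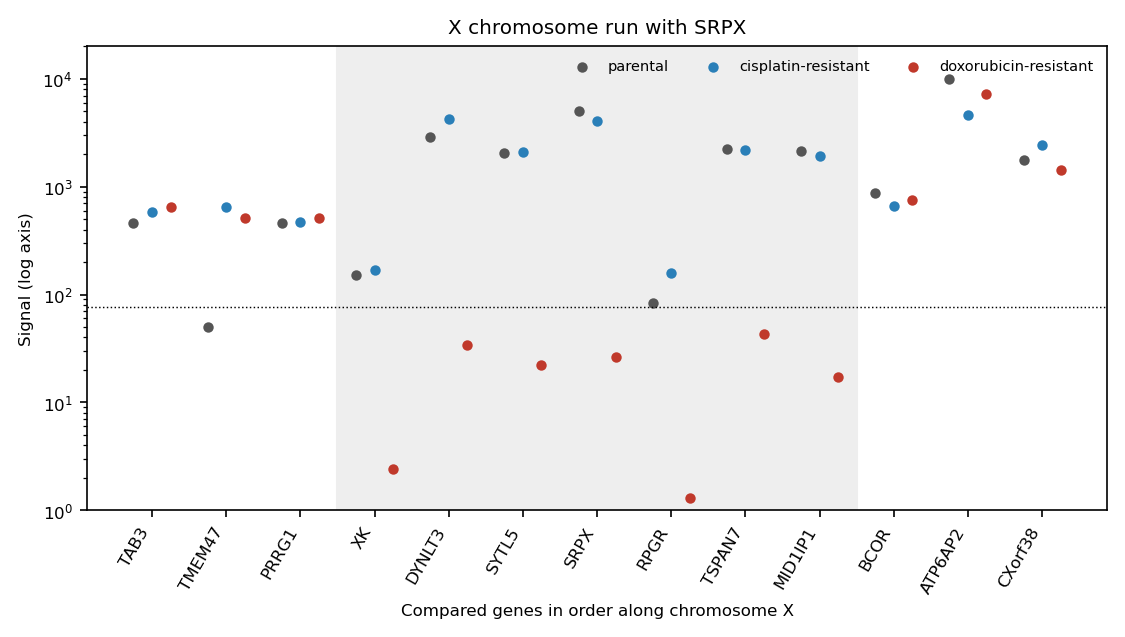
Signal on a log axis of the compared genes of the X chromosome run (shaded) and of 3 compared genes on each side, in order along the chromosome, with 1 point for each of the 3 MHCC97Low arrays (parental, cisplatin-resistant, doxorubicin-resistant). The dotted line is the floor of 76.9, and the doxorubicin-resistant points of the 7 shaded genes all lie under it.

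The plot of the run shows measured signal in the doxorubicin-resistant array in all 6 flanking genes. Outside the run, the X chromosome as a whole stood lower. Of 404 further compared X-linked genes, 31 (7.67%) were lower and 4 higher, 77.5% were below parental and the median log2 difference was -0.37. On the other chromosomes 2.54% of the genes were lower and 48.6% were below parental. The cisplatin-resistant array had a median of -0.35 over all compared X-linked genes.

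Several of these genes are cancer-testis antigens, which are normally expressed in germ cells. Of 9 compared members none was higher and 3 were lower, all X-linked, against 2.98% and 2.74% of all genes. The list median was -0.61. It was -0.29 without probe sets marked as possibly cross-hybridising and -0.92 with the floor at the 75th percentile. MAGEA12 had 1702, 905 and 234 (7.28-fold lower), MAGEA6 4515, 5025 and 1934 (2.33-fold lower), and MAGEC1 239, 98.1 and 73.5 (at least 3.11-fold lower). The MAGEA genes are near-identical copies whose probe sets may share signal. FGF13, an intracellular FGF homolog of the X chromosome, had 799, 24.4 and 43.0 and was at least 10.4-fold lower. CLCN5, an endosomal chloride transporter, had 1113, 367 and 517 (2.15-fold lower), or -0.95 on the log2 scale over the median of its probe sets.

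Growth factor genes differed singly. Of 24 compared members of the EGF, FGF, PDGF, VEGF and MET axes, 2 were higher and 2 lower, with a median of 0.12. The EGF receptor ligands EREG and TGFA had 521, 312 and 1761 (3.38-fold higher) and 161, 151 and 469 (2.92-fold higher, at least 1.40-fold in the weakest probe set). PDGFC, a ligand of PDGF receptors, had 617, 1006 and 87.7 and was 7.03-fold lower, below both other arrays. In the IGF axis, the stress-induced binding protein IGFBP1 had 2427, 608 and 6495 (2.68-fold higher) and IGFBP5 1517, 595 and 483 (3.14-fold lower, at least 1.04-fold in the weakest probe set). IGFBP1 was lowest in the cisplatin-resistant and highest in the doxorubicin-resistant array.

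Of 20 compared Wnt and Notch targets none was higher and 2 were lower, with a median of -0.19. The feedback gene AXIN2 had 1399, 769 and 629 (2.22-fold lower), and GLUL, glutamine synthetase, a target of beta-catenin in pericentral hepatocytes, 7784, 6949.5 and 2981 (2.61-fold lower). Both passed 2-fold in every compared probe set. Of 28 MAPK feedback and immediate early genes, the ETS factor ETV1 was the only called member, at 112, 537 and 296 (2.64-fold higher, 1.22-fold in the weakest probe set), and it stood at 0.81 on the log2 scale over the median of its probe sets. CCN2, the connective tissue growth factor gene and a YAP target, had 1197, 2147 and 2989 (2.50-fold higher).

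Among 22 axon guidance and ephrin genes, 5 were higher and none lower, against 2.98% and 2.74% of all genes. Their median was 0.33. EPHA1 had 59.1, 164 and 311 (at least 4.04-fold higher), EPHB4 1052, 1637 and 2916 (2.77-fold higher), SEMA3C 769, 1044 and 1978 (2.57-fold higher, 0.79 on the log2 scale over the median of its probe sets) and UNC5B, a netrin receptor, 158, 203 and 441 (2.80-fold higher). EPHA1, EPHB4 and SEMA3C lie on chromosome 7, of which SEMA3C is in the stretch with ABCB1. PLXNC1, a semaphorin receptor, was at least 2.01-fold higher, but 0.30 on the log2 scale over the median of its probe sets.

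Of 15 compared TNF receptors and ligands, 4 were higher and none lower, against 2.98% and 2.74% of all genes. Their median was 0.18. TNFRSF11B, the decoy receptor osteoprotegerin, had 96.7, 628 and 687 (7.10-fold higher, 4.31-fold in the weakest probe set). TNFRSF1B, the second TNF receptor, had 120.4, 376 and 296 (2.45-fold higher), the death receptor FAS 79.7, 253 and 194 (2.43-fold higher), and TNFRSF11A, the receptor RANK, 192, 223 and 451 (2.34-fold higher). FAS and TNFRSF11A stood under the call line over the median of their probe sets, at 0.56 and 0.72.

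Interferon-stimulated genes had 3 of 28 compared members higher and 2 lower, with a median of 0.15 beside 0.51 in the cisplatin-resistant array. ISG20, an exonuclease, had 419, 1650.3 and 1157 (2.76-fold higher), and SAMD9L, a restriction factor in the chromosome 7 stretch, 163, 380.2 and 419.9 (2.58-fold higher). OASL was 2.08-fold higher by its brightest probe set and stood at 0.84 over the median of its probe sets. IFI6 and USP18 were 2.12-fold lower and 2.00-fold lower, and both stood under the call line with the pseudocount, at -0.79 and -0.75. Of 24 compared cytokine and NF-kB genes, IL32 had 632, 1619.7 and 2695 (4.26-fold higher), the neutrophil chemokine CXCL5 1259, 1293 and 456 (2.76-fold lower), and the macrophage growth factor CSF1 1801, 441 and 468 (3.85-fold lower).

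Lipid mediator and sphingolipid enzymes differed gene by gene. PTGIS, prostacyclin synthase, had 247, 88.5 and 1116 and was 4.53-fold higher, but 0.34 on the log2 scale over the median of its probe sets. PTGS2, cyclooxygenase 2, had 459.6, 568 and 158 (2.90-fold lower), and PLA2G4A, the phospholipase that feeds it, 523, 1159 and 239 (2.19-fold lower, or -0.99 with the pseudocount). SGPP2, a sphingosine 1-phosphate phosphatase, had 787, 1169 and 3354 (4.26-fold higher), and the ceramide desaturase DEGS1 3498, 3867 and 1636 (2.14-fold lower). SGMS2, a sphingomyelin synthase, was 2.47-fold higher and stood at 0.42 over the median of its probe sets. ABCG1, the cholesterol exporter, had 468, 1101 and 1176 (2.51-fold higher).

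In methionine and nicotinamide metabolism 2 of 19 compared genes were higher and 2 lower. BHMT2, which methylates homocysteine, had 2542, 4049.9 and 568 (4.48-fold lower, 4.08-fold in the weakest probe set). QPRT, of NAD synthesis from tryptophan, had 1187, 1112 and 397 (2.99-fold lower), whereas NAPRT, of NAD synthesis from nicotinic acid, had 386, 1067 and 881 (2.28-fold higher). The amino acid transporters SLC1A7 and SLC7A2 had 426, 1455 and 1412 (3.32-fold higher) and 271, 372 and 610.5 (2.26-fold higher), and SLC7A7 1258, 596 and 554 (2.27-fold lower). The neuronal enolase ENO2 was 2.29-fold lower.

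Heat shock protein and co-chaperone genes included 4 lower and no higher members of 26 compared, with a median of -0.14. CRYAB, alpha-B-crystallin, had 474, 157 and 103 (4.62-fold lower), HSPA2 263, 239 and 99.8 (2.64-fold lower), and HSPA12A 663, 442 and 288 (2.31-fold lower). Of 28 lysosome and autophagy genes, 3 were lower and none higher, with a median of -0.30, or -0.12 with the floor at the 75th percentile. ATG7, the E1-like enzyme of autophagy, had 879, 1075 and 356 (2.47-fold lower, 1.40-fold in the weakest probe set), and DRAM1, a p53-induced autophagy gene, 727, 702 and 357 (2.04-fold lower, or -0.93 with the pseudocount). Of 9 compared histone genes 3 were lower, against 2.74% of all genes, with a median of -0.71. H2BC12 had 3944, 2246 and 1257 (3.14-fold lower) and H1-2 848, 602 and 298 (2.85-fold lower).

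Of 17 ion channel genes, 1 was higher and 4 lower, against 2.98% and 2.74% of all genes. Their median was -0.29, or -0.06 with the floor at the 25th percentile. The potassium channel subunits KCNE3 and KCNE4 had 432, 201 and 103 (4.20-fold lower, 1.02-fold in the weakest probe set) and 1813, 464 and 683 (2.66-fold lower), and KCNMB4 635, 781 and 162 (3.91-fold lower, or -0.96 over the median of its probe sets). The intracellular channel CLIC3 had 173, 376 and 407 (2.35-fold higher).

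**Figure D5:**
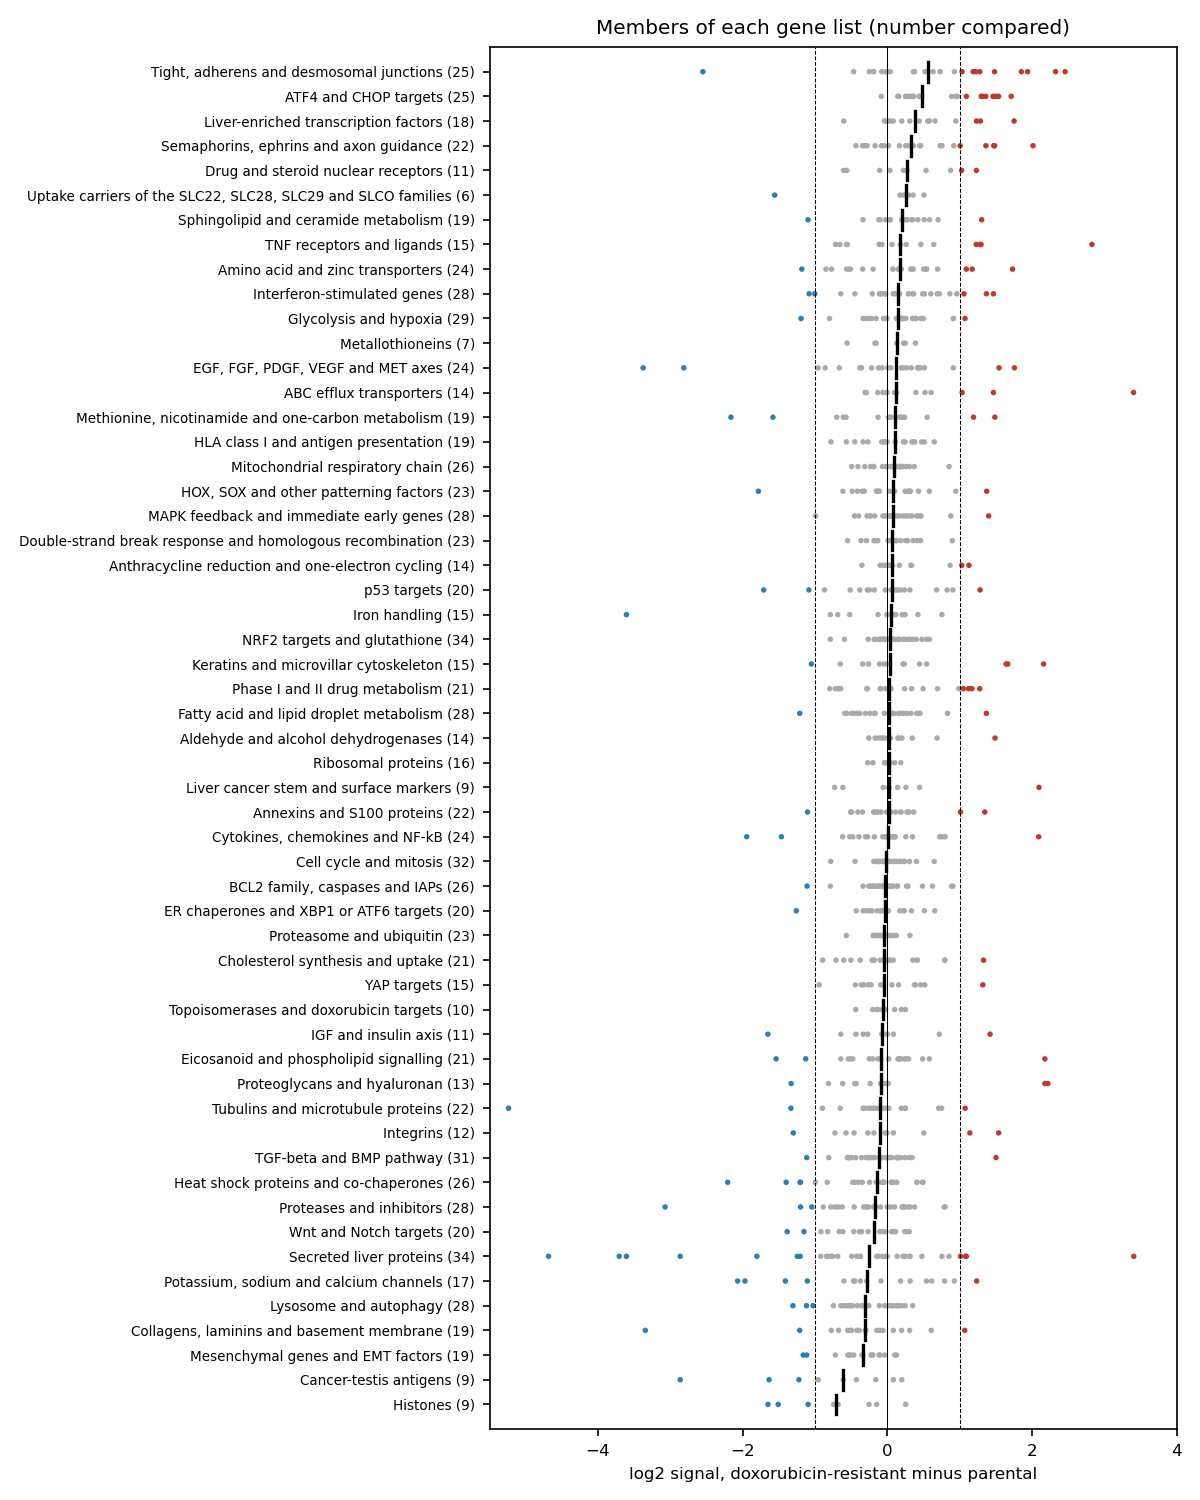
Log2 signal difference, doxorubicin-resistant minus parental, of every compared member of 55 gene lists (points) with the median of each list (black bars), ordered by the median, with the number compared in brackets. Red points are 2-fold or more higher and blue points 2-fold or more lower, and junction genes and ATF4 and CHOP targets have the 2 highest medians, at 0.56 and 0.48.

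Most lists lay near the median of all genes in the plot of list members, and 9 of the 55 had no called member. Cell cycle and mitosis genes had none called among 32 compared, with a median of -0.02 and a range from -0.78 to 0.65. Double-strand break and homologous recombination genes had none among 23 (median 0.07), NRF2 targets and glutathione genes none among 34 (median 0.04), and HLA class I and antigen presentation genes none among 19 (median 0.11). The proteasome, respiratory chain, ribosomal protein and metallothionein lists also had none. Of 20 p53 targets 1 was higher and 2 lower. PHLDA3, an AKT repressor, had 252, 135 and 64.2 (at least 3.27-fold lower, at least 1.19-fold in the weakest probe set, and -0.98 on the log2 scale over the median of its probe sets), and XPC, which recognises DNA lesions, 942, 1039.9 and 444 (2.12-fold lower). Of 26 BCL2 family and caspase genes the BH3-only gene BMF was the only called member, at 314, 169 and 146 (2.16-fold lower, or -0.90 with the pseudocount).

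The genes that follow differed most from parental in the doxorubicin-resistant array while the cisplatin-resistant value, after the floor was applied, lay within 0.25 log2 of parental, genes of the X run apart. For CNTNAP2, NPNT, TMEM132D-AS1 and PSD2 both of those values were under the floor, so that the floor sets their difference to 0 and no likeness between these arrays was measured. BHLHE41, a circadian repressor, had 94.3, 93.9 and 807 (8.55-fold higher) in 1 of its 4 probe sets. The others were under the floor on every array. CNTNAP2, a neuronal adhesion gene of chromosome 7, had 18.7, 26.0 and 603 (at least 7.85-fold higher). The integrin ligand nephronectin, NPNT, had 64.9, 4.35 and 512 (at least 6.66-fold higher), with its other probe set under the floor on every array. The antisense RNA gene TMEM132D-AS1 was under the floor in both other arrays and had 794 in the doxorubicin-resistant one (at least 10.3-fold higher), and PSD2 19.4, 5.97 and 467 (at least 6.08-fold higher). GASK1B, a Golgi-associated kinase family gene, had 1361, 1278 and 97.3, a log2 difference of -3.81, with at least 1.03-fold in the weakest probe set. ZNF91, a KRAB zinc finger repressor of retrotransposons, had 483, 416 and 64.0 (at least 6.28-fold lower) in 1 of its 7 probe sets, and the others were under the floor on every array.

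Among the remaining genes with the largest differences and several agreeing probe sets, the ubiquitin ligase TRIM15 had 1086 in the doxorubicin-resistant array (4.34-fold higher), MACROD1 252, 591 and 1086 (4.31-fold higher, 1.08-fold in the weakest probe set), and the endosomal linker HOOK1 96.8, 286 and 416 (4.30-fold higher). LRATD2 was 4.24-fold higher (1.18-fold in the weakest probe set), NEBL, a nebulin-related actin protein gene, 4.06-fold higher (at least 1.04-fold, and 0.87 on the log2 scale over the median of its probe sets), and GIPC2, whose product binds receptor tails, at least 8.41-fold higher. On the lower side, ABTB3 had 1420.5, 178 and 213 (6.66-fold lower), the actin nucleator SPIRE1 1155, 149 and 193 (5.98-fold lower), and the protein kinase A inhibitor PKIB 1919, 1064 and 390.2 (4.92-fold lower). PGM5 was 4.36-fold lower (at least 1.04-fold in the weakest probe set) and OBSL1 4.15-fold lower (at least 2.63-fold), and OBSL1 stood at -0.17 on the log2 scale with the floor at the 75th percentile. PCDH7 was 4.09-fold lower (at least 1.12-fold in the weakest probe set) and stood at -0.69 over the median of its probe sets.

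Probe sets of SETD5, a chromatin regulator gene on chromosome 3, passed 2-fold in opposite directions, the only 1 of the compared genes to do so. One was 2.06-fold lower (1146, 1106 and 557), and another at least 2.47-fold higher (63.0, 108 and 189.7). The remaining probe sets also stood below parental. The brightest had 2568, 3115 and 1337 (-0.94 on the log2 scale), and the others stood at -0.56 and -0.45.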

How the data were processed

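Total RNA of 3 cell lines was hybridised to Affymetrix U133 Plus 2.0 arrays, 1 array for each, per the labels. The authors deposited 1 linear signal intensity per probe set, made with MAS5 per the submitters' processing notes, with no version given in the sources used here. Both compared arrays had a trimmed mean of 499.9 (2% off each tail). Subtraction of mismatch signal makes low MAS5 values noisy, so values were raised to the pooled median of 76.9 before log2 was taken.

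Of 54675 probe sets, 41097 had 1 gene symbol in the platform annotation, and 41043 of these matched RefSeq (GRCh38.p14), which gave current symbols and gene order. The probe set with the highest mean log2 signal over the 3 arrays stood for a gene, which was compared when at least 1 of the 2 values exceeded the floor. Calls used 2-fold, with no test and no p-value. The 62 gene lists hold 1537 entries (1310 of their 1451 genes were on the array under 1 symbol). The members and lists were chosen with earlier results of these data known. Named were the 15 genes each way with the largest difference among genes measured on both arrays in several probe sets of 1 sign, the 8 each way with the largest bound, list members, genes with probe sets past 2-fold in opposite directions, and the 10 with the largest difference whose cisplatin-resistant value was within 0.25 log2 of parental. Genes of the run with SRPX and of the stretch with ABCB1 could be named, and of the stretch only some were. PCK2 and INHBE are list members set beside the ATF4 targets after their values were seen, and 1 of the 15 lower genes is not reported here.

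Python 3.11.15 with pandas 2.3.3, numpy 2.4.6 and matplotlib 3.10.9 was used. The code for the calls was run on simulated data with changes placed only in genes well above the floor, so changes in dim genes were not covered. Alternatives covered the floor, a pseudocount of 50, quantile normalization, centring, and the choice of probe sets.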

Additional observations from a re-analysis of the deposited data

How the results depend on the processing

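The choice of floor changed the counts of genes past 2-fold most. With the floor at the pooled 25th percentile, 912 genes were higher and 1180 lower, and with the floor at the 75th percentile 160 were higher and 99 lower, against 376 and 345. The share of calls that were higher was accordingly 43.6% and 61.8%, against 52.1%. The lower floor admits dimmer genes and the higher one removes them. Counts under the other 5 alternatives were within 1.5 times of these.

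Of 187 called genes followed, none changed sign, and 113 passed 2-fold in every alternative that gave a value. Within a probe set, a changed floor or a pseudocount cannot reverse the order of the values, so for these settings the kept sign carries little information. The pseudocount and the median over probe sets each kept 164 of 187, quantile normalization 185, centring and the lower floor all 187, the higher floor 94 of 136, and leaving out _x_at and _s_at probe sets 129 of 135. The median of the chromosome 7 stretch ranged from 0.84 to 0.93, and that of the X run from -6.43 with the lower floor to -2.35 with the higher one. Of 409 list medians under alternatives, 24 in 16 lists changed sign, all in lists whose median was at most 0.18 in size.

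No paired analysis was possible because each line has 1 array, so leaving out a replicate was not run either. The share of genes called was 9.54% among the dimmest and 2.36% among the brightest of 3 equal groups by signal. The spread between cultures and DNA copy number were not measured.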

Other observations

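Other runs of neighbouring genes differed from parental, and these and the genes below were chosen after their values were seen. By the same running median, 13 stretches were found, 3 higher and 10 lower, among them the one with ABCB1. The lowest median was that of 48 compared genes on chromosome 3 from CAV3 to TPRXL, at -0.85 on the log2 scale, with 46 below parental, 14 lower (29.2%) and none higher, and a median of -0.01 in the cisplatin-resistant array. CIDEC, a lipid droplet protein gene, had signals of 3019.6 in parental MHCC97Low, 3915 in MHCC97L/CisR and 1228 in MHCC97L/DoxR (2.46-fold lower). RAD18, the ubiquitin ligase of DNA damage tolerance, had 687, 594 and 311 (2.21-fold lower, 1.46-fold in the weakest probe set), the nuclear pore gene NUP210 3713, 3227 and 1498 (2.48-fold lower), and the WAVE complex subunit BRK1 7009, 6622 and 3250.2 (2.16-fold lower). TAMM41, of cardiolipin synthesis, had 665, 617 and 201 (3.30-fold lower), and ATG7 lies in the same stretch.

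On chromosome 1, the 48 compared genes from RGL1 to GPR37L1 had a median of -0.51 and the 25 from NFASC to C4BPA one of -0.59. The first holds PTGS2, PLA2G4A and PHLDA3, and the second C4BPA and SLC26A9, an anion transporter at 604, 667 and 107 (5.66-fold lower). A further stretch of chromosome 7, from EZH2 to RBM33, had 52 compared genes and a median of 0.49. In it the membrane protein genes TMEM176B and TMEM176A had 621, 3347 and 2065 and 602, 2956 and 1239, so that the cisplatin-resistant array was the highest.

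Zinc finger genes named ZNF on chromosome 19 also stood lower. Of 135 compared, none was higher, 13 (9.63%) were lower and 113 stood below parental, with a median of -0.31. The 193 ZNF genes on other chromosomes had a median of -0.07 with 3 higher and 4 lower, and the 697 other genes of chromosome 19 had one of -0.03. The cisplatin-resistant array had a median of -0.29 for the same 135 genes, against the same parental array. ZNF468 had 334, 189 and 9.18 (at least 4.34-fold lower), ZNF44 265, 226 and 81.5 (3.25-fold lower) and ZNF85 258, 135 and 41.4 (at least 3.36-fold lower), while ZNF585A and ZNF548 had 645, 251 and 168 and 477, 194 and 127. Their median parental signal was 264, against 590 for the other genes of the chromosome, and the part of low signal in this difference was not tested. These genes are related in sequence, and probe sets may share signal.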
